A study of Homo sapiens with 27 samples.

Results

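The genes described here are 3 tissue inhibitors of metalloproteinases (TIMP1, TIMP2 and TIMP3) and 7 matrix metalloproteinases (MMP1, MMP3, MMP7, MMP10, MMP13, MMP14 and MMP15), followed across 9 polycyclic aromatic hydrocarbons. They were found as the spots that carry these gene names in the scanner output, which gave 14 probes on the platform shared by 8 compounds and 14 on the platform of the ninth. The 10 genes stand beside 17293 genes tested on the shared platform and 14448 on the other. They were chosen by the log2 ratio of compound to solvent that these same arrays show. Their ratios are therefore given as a description, without a p-value, and no test between compounds was made on them.

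Matrix metalloproteinases are zinc endopeptidases that cut collagens, proteoglycans and other proteins outside the cell, and most are made as inactive proenzymes. TIMPs are small secreted proteins that bind the active site of these enzymes and block it, and TIMP3 in addition stays bound to the matrix. In liver, this balance sets how much matrix is kept or removed during injury, scarring and tumour spread, and much of it is made by stellate cells.

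The cells were HepG2, a line from a human hepatocellular carcinoma that keeps many functions of hepatocytes. They were exposed for 48 h to a single hydrocarbon: indeno[1,2,3-c,d]pyrene (IND), phenanthrene (PH), benzo[k]fluoranthene (BF), benzo[a]pyrene (BaP), chrysene (CHR), dibenzo[a,h]anthracene (DBA), naphthalene (NP), 3-methylcholanthrene (3MC) or benzo[a]anthracene (BA). Controls received the solvent, DMSO, which every array carried in the Cy3 dye beside the RNA of exposed cells in Cy5. Each compound had 3 arrays, 27 in all, without any dye swap, and a probe that favours either dye therefore carries that bias in its ratio. A single cell line represents the liver here and holds no stellate cells, endothelium or macrophages. Doses are not given, so values of the compounds are set side by side without a test between them, and any order among them describes these arrays at doses that may differ. Nothing says whether the 3 arrays of a compound came from separate cultures, so their spread may be technical.

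The arrays differed in brightness. Arrays of NP, 3MC and DBA, which had a file layout of their own, were dim in Cy5, with medians of 70.0 to 163 against 342 to 1535 elsewhere. BA array 1 stood apart: its ratios correlated at 0.126 with another BA array across genes, while the lowest correlation within any other compound was 0.905. CYP1A1, the classical target of the aryl hydrocarbon receptor, served as a check of the exposure, and its log2 ratio was 0.58 on BA array 1 against 6.25 and 6.23 on the other BA arrays. CYP1A1 was higher with 8 compounds by limma, at log2 ratios of 2.63 to 6.23. Its Cy5 spot was saturated on 2 or 3 of 3 arrays for BA, CHR, BF and IND. With NP the log2 ratio was 0.47 ± 0.05 (SD, n = 3) (limma, Benjamini-Hochberg adjusted p = 0.537). The limma fit used a single variance per gene for all compounds of the shared platform, BA array 1 included. The NP adjusted p therefore carries the spread of the BA arrays and cannot decide whether CYP1A1 changed with NP. Member ratios and counts of calls for BA are given with and without array 1 where it moved them. All 9 hepatocyte markers, albumin and alpha-fetoprotein among them, stood above background in DMSO on the arrays of every compound. Of the other cell types' markers, 3 to 7 of the 7 or 8 stellate markers with a probe, 2 to 5 of 5 endothelial markers and 3 to 6 of 6 macrophage markers also did, so this measure does not separate cell types. In these bulk RNA samples, a change in the number of expressing cells and a change of RNA per cell cannot be told apart.

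TIMP1, which inhibits most soluble metalloproteinases and is also a growth factor for several cell types, had the highest mean ratio of the 10 genes with each compound. This did not hold with NP under plain background subtraction, where MMP3 was at 3.84 and TIMP1 at 2.93, nor under quantile scaling (3.52 and 2.34) or in the authors' deposited log2 ratios (4.10 and 3.03). The deposited MMP3 value comes from NP array 3 alone. The log2 ratios of compound over DMSO on the 3 arrays were 4.49, 4.72 and 4.59 with BaP, 3.93, 3.94 and 3.89 with CHR, and 3.58, 3.71 and 3.64 with BF. They were 3.79, 3.44 and 3.62 with PH, 3.25, 3.27 and 3.38 with IND, and 2.87, 2.84 and 2.78 with NP. They were 2.73, 2.50 and 2.46 with DBA and 1.84, 1.88 and 1.93 with 3MC. These 24 arrays all lay above 0, and of the neighbours in this order only BF and PH overlapped. The order depended on the processing. With median centring in place of loess BF was above CHR (4.28 against 4.11). DBA was above NP with plain background subtraction (3.03 against 2.93), median centring (2.84 against 2.66) and quantile scaling (2.58 against 2.34). The BA arrays did not lie together, at -0.06, 2.55 and 2.58: array 1 was the only 1 of 27 below 0, and the other BA arrays lay within the range of DBA.

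The means were 4.60 ± 0.11 (SD, n = 3) with BaP, 3.92 ± 0.03 with CHR, 3.64 ± 0.07 with BF, 3.62 ± 0.18 with PH and 3.30 ± 0.07 with IND, each over 3 arrays. They were 2.83 ± 0.04 with NP, 2.57 ± 0.15 with DBA and 1.88 ± 0.05 with 3MC, and 1.69 ± 1.52 with BA, or 2.57 ± 0.02 (n = 2, 5.92-fold) without its array 1. In linear terms the 3MC mean was 3.69-fold and the CHR mean 15.2-fold. With BaP, 76% to 94% of the pixels of the Cy5 spot were saturated on every array, so the change is at least 24.2-fold and its distance to the other compounds has only a lower bound. NP, with the CYP1A1 ratio nearest to 0, had a 7.12-fold TIMP1 ratio. A spot is called here at an adjusted p under 0.05 in limma's fit of all genes together with a change of at least 1.5-fold. TIMP1 met this rule with 9 of 9 compounds, although the BA call did not hold when each compound was fitted alone.

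Both dyes were well above background for TIMP1 on all 27 arrays. Its normalised DMSO level, as log2 intensity, ranged from 10.08 ± 0.11 on the CHR arrays to 11.33 ± 0.17 on the NP arrays (SD, n = 3) within the shared platform. The BA arrays had compound levels of 11.52, 13.81 and 13.72, the lowest on array 1. Elsewhere the compound level ranged from 13.14 ± 0.09 on the 3MC arrays to 15.07 ± 0.08 on the BaP arrays. On the IND arrays, normalised on their own, the levels were 11.44 ± 0.13 in DMSO and 14.73 ± 0.07 in IND. Leaving BA aside, the compound level thus had a wider range than the DMSO level, with the saturated BaP spot at its top. The compound level was 14.01 ± 0.08 with CHR and 14.16 ± 0.16 with NP, although the CHR ratio was higher. The part of either channel in the order of the ratios was not tested.

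**Figure D1:**
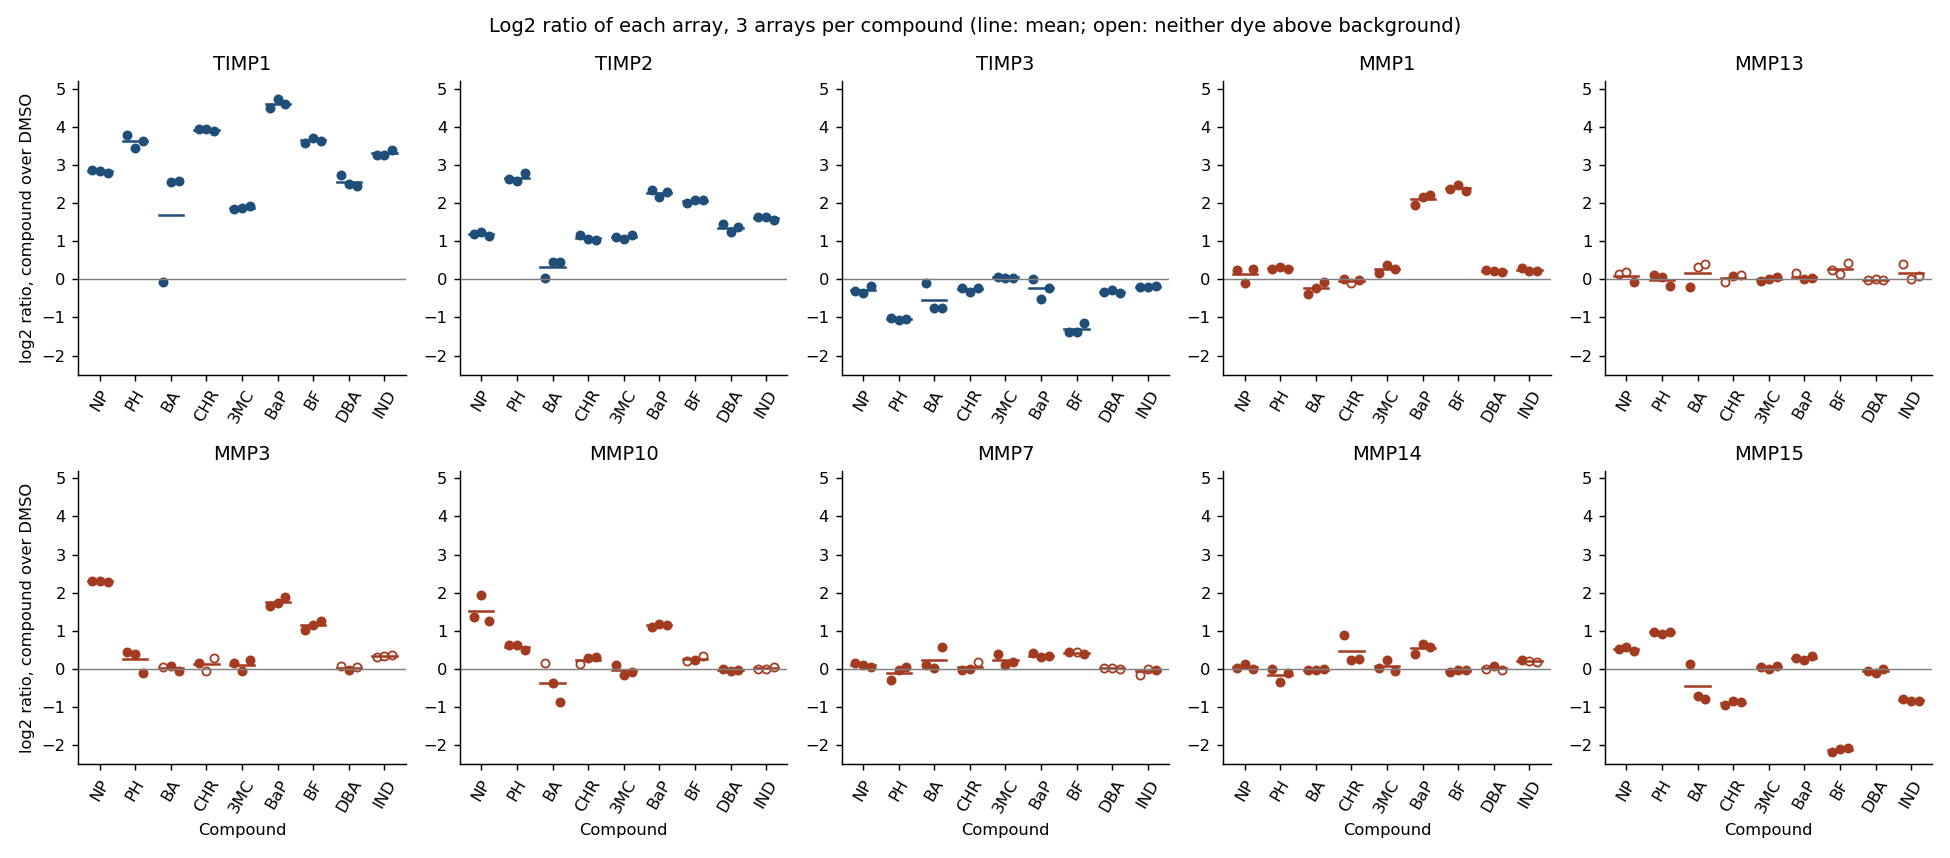
Log2 ratio of compound over DMSO (vertical axis) for the 10 genes on each of 3 arrays per compound (horizontal axis), with the mean as a line and open points where neither dye stood above background. TIMP1 lay above 0 on 26 of 27 arrays and TIMP2 on 27 of 27, while MMP15 had called means on both sides of 0, from 0.96 with PH to -2.13 with BF.

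TIMP2, which besides inhibiting takes part in activating pro-MMP2 at the cell surface together with MMP14, had ratios above 0 on 27 of 27 arrays. The log2 ratios were 2.64, 2.58 and 2.79 with PH, 2.33, 2.17 and 2.29 with BaP, and 1.99, 2.09 and 2.09 with BF. They were 1.63, 1.64 and 1.55 with IND, 1.45, 1.24 and 1.38 with DBA, and 1.19, 1.23 and 1.13 with NP. They were 1.11, 1.05 and 1.17 with 3MC, 1.15, 1.05 and 1.03 with CHR, and 0.04, 0.46 and 0.46 with BA. PH, BaP, BF, IND and DBA each lay above the next compound without overlap, whereas NP, 3MC and CHR overlapped in this order. The means ranged from 2.67 ± 0.11 (SD, n = 3, 6.37-fold) with PH to 1.08 ± 0.06 (2.11-fold) with CHR. The order of the compounds depended on the processing here as well. With median centring BF was highest, at 2.70 against 2.62 with PH and 2.42 with BaP. With quantile scaling BF (2.40) lay above BaP (2.17). TIMP2 met the call rule with 8 of 9 compounds, and BA was the exception at 0.32 ± 0.24, or 0.46 (n = 2) without its array 1.

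The order of the compounds for TIMP2 was not that for TIMP1: as reported, CHR ranked behind BaP alone for TIMP1 and came eighth of 9 for TIMP2. With median centring CHR ranked behind BF as well for TIMP1. For TIMP2 it was then at 1.16, above 3MC (1.11) and NP (0.94). The DMSO level of TIMP2 was lowest on the arrays of PH and BaP, at 9.73 ± 0.11 and 9.91 ± 0.08 log2 intensity (SD, n = 3), which as reported, though not with median centring, were also the compounds with the highest ratios. On the other arrays of the shared platform it was 10.70 to 12.21. The compound level was 13.88 ± 0.18 on the BF arrays and 12.40 ± 0.19 and 12.18 ± 0.04 on the PH and BaP arrays. Whether the DMSO levels account for the order of the ratios was not tested. A further TIMP2 probe, designed on the accession AK057217, had log2 ratios of -0.02 to 0.35. It stood above background in both dyes on at least 2 of 3 arrays with PH and BaP only, and with DBA on no array in either dye. When both probes were averaged, the log2 ratio was 0.55 with 3MC and 0.58 with NP, and TIMP2 was then not called with these compounds.

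TIMP3, the matrix-bound inhibitor, also blocks several ADAM proteases that shed membrane proteins. Its main probe was lower with PH and BF, at log2 ratios of -1.02, -1.06 and -1.05 with PH and of -1.37, -1.38 and -1.14 with BF. The means of -1.04 ± 0.02 and -1.30 ± 0.14 (SD, n = 3) are 2.06-fold and 2.46-fold. The BA arrays were at -0.10, -0.74 and -0.76, with a mean of -0.53 ± 0.37, and of -0.75 ± 0.01 (n = 2) without array 1, when BA was called as well. The means with the other 6 compounds lay between -0.33 and 0.05 and were not called, and their arrays overlapped from IND to DBA in this order.

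The probes of TIMP3 disagreed. A further probe, on the accession X77690 and not named TIMP3 on the IND platform, was at 0.26 ± 0.03 (SD, n = 3) with BF and at -0.29 ± 0.09 with PH. With BF it stood above background on 2 of 3 arrays in Cy5 and on 1 of 3 in Cy3. The mean of both probes was -0.52 with BF, which was not called, and -0.67 with PH, which was. A probe on AB051444 carried the name TIMP3 on 9 arrays of the shared platform and on the IND arrays, and the name of the host gene SYN3 on the other 15, and its means lay between -0.37 and 0.13.

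**Figure D2:**
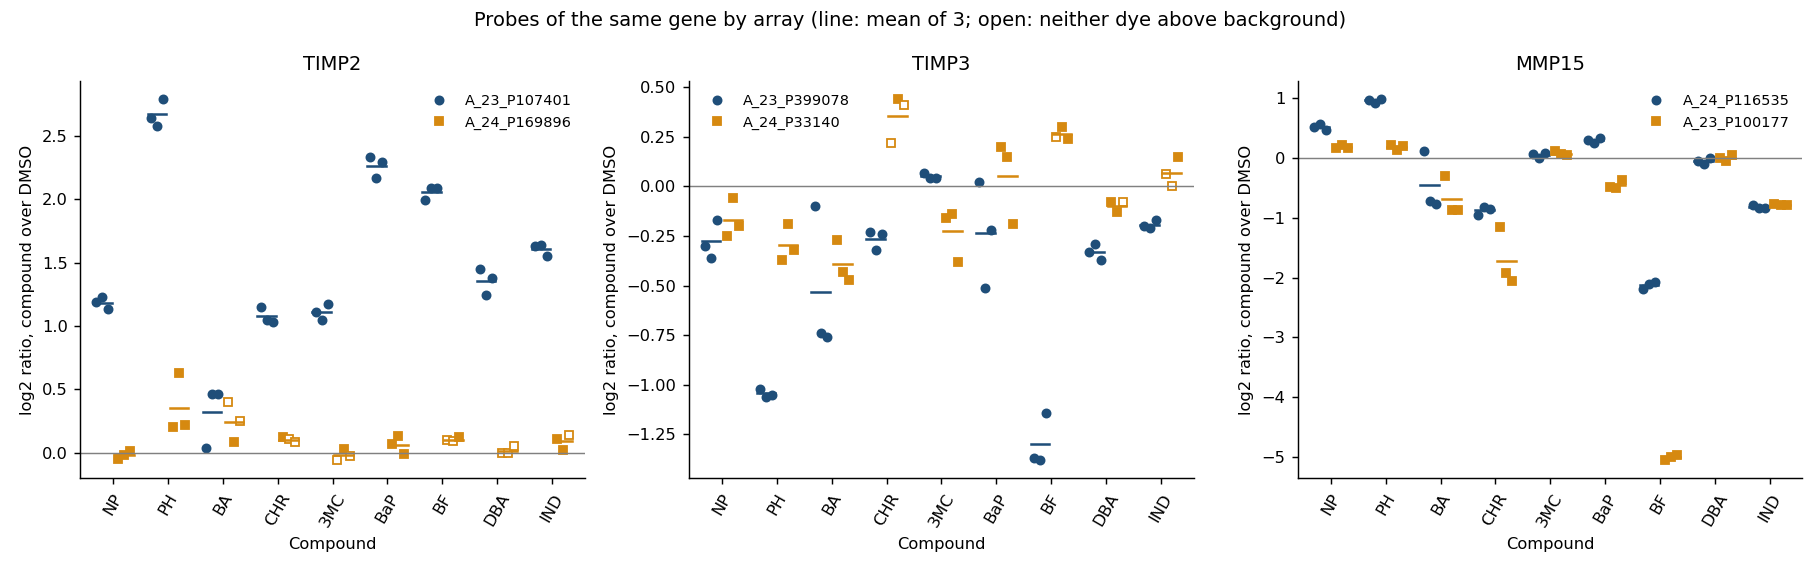
Log2 ratio of compound over DMSO (vertical axis) on each array for the probes of TIMP2, TIMP3 and MMP15, by compound (horizontal axis), with the mean of 3 arrays as a line and open points where neither dye stood above background. The second probes of TIMP2 and TIMP3 stay within -0.47 and 0.63, and the second MMP15 probe reaches -5.05 with BF where the main probe is at -2.13.

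TIMP1 lies within SYN1, TIMP3 within SYN3 and TIMP4 within SYN2, genes of synapsins, per the GRCh38.p14 annotation, while TIMP2 lies in no other gene. SYN1 was higher with NP alone (log2 ratio 0.73 ± 0.19, limma adjusted p = 1.51e-08) and lower with BF alone (-1.79 ± 0.05, SD, n = 3, limma adjusted p = 2.32e-15), and its Cy5 spot was saturated on all 3 arrays of BA and of IND. SYN3 was lower with CHR, BaP and BF (limma adjusted p = 3.3e-10, 1.72e-11 and 1.26e-09), with log2 ratios of -1.13 and -1.33 for CHR and BaP. Without BA array 1, SYN3 was lower with BA as well (-0.68, n = 2, limma adjusted p = 9.2e-09). The promoters of TIMP1 and TIMP3 are shown because the first gene was called higher with every compound and the second lower with only PH and BF. Each run gives the 250 bases before the transcription start, 5′ to 3′ on the gene's strand, from RefSeq on GRCh38.p14. Capitals mark the searched motifs, which were looked for on both strands: the AP-1 site TGAGTCA, its variant TGAGTAA, the core of the xenobiotic response element GCGTG, bound by the aryl hydrocarbon receptor, and the TATA box TATAAA. None of these motifs overlaps another in the runs shown.
TIMP1, chrX:47582186-47582435, plus strand: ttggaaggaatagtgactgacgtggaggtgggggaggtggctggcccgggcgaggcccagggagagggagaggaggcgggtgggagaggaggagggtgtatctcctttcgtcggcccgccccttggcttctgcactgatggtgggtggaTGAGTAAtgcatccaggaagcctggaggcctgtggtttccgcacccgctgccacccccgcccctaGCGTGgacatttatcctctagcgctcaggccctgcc
TIMP3, chr22:32801455-32801704, plus strand: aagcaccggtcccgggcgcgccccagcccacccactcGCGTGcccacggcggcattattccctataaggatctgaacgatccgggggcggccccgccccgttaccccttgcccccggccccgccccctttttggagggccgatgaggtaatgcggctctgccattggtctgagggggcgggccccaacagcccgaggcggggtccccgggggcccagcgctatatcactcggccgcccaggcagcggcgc

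TIMP1 holds TGAGTAA at bases -101 to -95 and GCGTG at -36 to -32, counted back from the start. TIMP3 holds GCGTG at -213 to -209. Of 35116 promoters of the same length, 2.21% hold TGAGTAA and 32.2% hold GCGTG on either strand, so the second is common. RefSeq promoters were matched for 6 of the 10 genes: TIMP1, TIMP3, MMP7, MMP10, MMP14 and MMP15. MMP14 and MMP15 hold none of the 4 motifs in this window. A match is only a run of letters and says nothing of binding.

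MMP1, the interstitial collagenase that opens the triple helix of fibrillar collagens, had high ratios with BF and BaP. The log2 ratios were 2.36, 2.48 and 2.31 with BF and 1.96, 2.15 and 2.22 with BaP. The means were 2.38 ± 0.08 (SD, n = 3, 5.22-fold) and 2.11 ± 0.14 (4.31-fold), and the arrays of these compounds did not overlap. The means with the other 7 compounds lay between -0.23 ± 0.16 with BA (-0.15 without its array 1) and 0.29 ± 0.03 with PH, were not called, and overlapped from each compound to the next in order. On the IND platform MMP1 had 10 spots per array, of which 7 to 8 stood above background in Cy5 and 8 to 9 in Cy3, and its mean was 0.25 ± 0.05. A further MMP1 probe, named so on the IND platform only, was at 0.10 ± 0.15 (SD, n = 3). The mean of both probes was 0.17 with IND and was not called.

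The DMSO level of MMP1 differed widely between arrays. It was 10.71 ± 0.20, 9.70 ± 0.13 and 9.56 ± 0.63 log2 intensity (SD, n = 3) on the NP, 3MC and DBA arrays and 6.87 to 7.97 on the other arrays of the shared platform. The compound levels with BF and BaP, 9.87 ± 0.04 and 9.22 ± 0.12, were thus within or below the mean DMSO levels of the NP, 3MC and DBA arrays. Those 3 sets are also the dim ones with their own file layout. Differences between control cells and between scans cannot be told apart here.

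**Figure D3:**
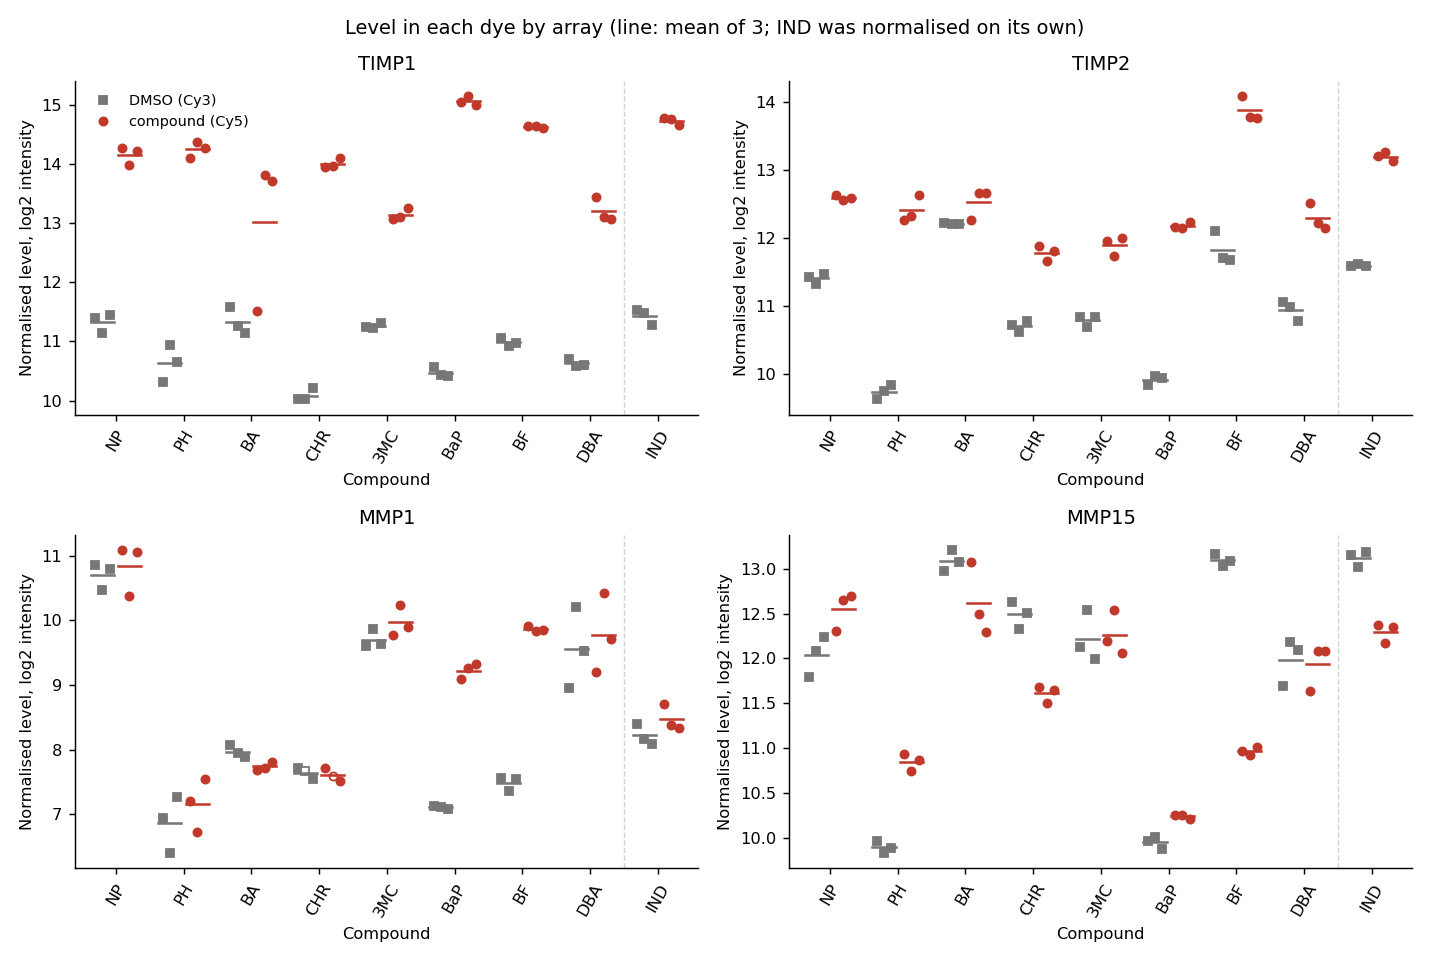
Normalised level in log2 intensity (vertical axis) of TIMP1, TIMP2, MMP1 and MMP15 in DMSO (grey squares, Cy3) and compound (red circles, Cy5) on each array, by compound (horizontal axis), with the mean of 3 arrays as a line. IND, right of the dashed line, was normalised on its own. The mean MMP1 DMSO level is 9.56 to 10.71 with NP, 3MC and DBA. That of the main MMP15 probe, shown here, is 9.89 and 9.95 with PH and BaP and 11.98 or more elsewhere.

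MMP13, collagenase 3, was near background. On the 24 arrays of the shared platform its means lay between -0.01 and 0.27, and with BF and DBA no array stood above background in either dye. It was not tested with IND and was called with no compound. With plain background subtraction MMP13 was called higher with BA (0.67) and BF (0.81).

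MMP3 and MMP10 are stromelysins, which cut proteoglycans, laminin and fibronectin and activate other proenzymes. MMP3 had log2 ratios of 2.31, 2.30 and 2.28 with NP, 1.64, 1.73 and 1.90 with BaP, and 1.01, 1.15 and 1.26 with BF. These arrays did not overlap, and the means were 2.29 ± 0.02 (SD, n = 3, 4.90-fold), 1.76 ± 0.14 (3.38-fold) and 1.14 ± 0.13. The DMSO signal of MMP3 stood above background on 1 of 3 BaP arrays and on none of the BF arrays, so with BF the change is at least 2.20-fold. The remaining 5 compounds of the shared platform had means of 0.02 to 0.25 with overlapping arrays, and the IND arrays were not tested. In the authors' deposited log2 ratios MMP3 was called higher with PH (0.68), with arrays at 1.19, 0.60 and 0.25. With plain background subtraction the means were 3.84 with NP, 2.95 with BaP and 2.33 with BF, so the size of these ratios depends on how the dim DMSO spots are corrected.

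MMP10 was also high with NP and BaP, at 1.37, 1.95 and 1.27 with NP and at 1.10, 1.18 and 1.16 with BaP. The means were 1.53 ± 0.36 (SD, n = 3, 2.89-fold) and 1.15 ± 0.04 (2.21-fold), and with plain background subtraction 2.05 and 2.17. PH followed at 0.64, 0.62 and 0.50, a mean of 0.59 ± 0.07 at the edge of the call rule. This call did not hold without PH array 1 (0.56), without PH array 2 (0.57) or without background correction (0.35). The BA arrays were at 0.16, -0.37 and -0.87, with Cy5 above background on none of them, and the mean without array 1 was -0.62 ± 0.35 (n = 2). The DMSO level of MMP10 was 8.26 ± 0.50, 7.97 ± 0.37 and 7.67 ± 0.49 log2 intensity on the NP, 3MC and DBA arrays and 6.23 to 6.65 on the others of the shared platform, the same division as for MMP1.

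Across the 24 arrays of the shared platform the log2 ratios of MMP3 and MMP10 had a Pearson correlation of 0.85 and a Spearman correlation of 0.76. TIMP1 and TIMP2 had 0.70 and 0.51. The TIMP1 and TIMP2 probes stood above background on all 24 arrays, whereas those of MMP3 and MMP10 did not. The values of that pair thus rest in part on spots near background. These values are descriptions: the 3 arrays of a compound are not independent points, and the pairs share arrays and DMSO RNA. TIMP1 and TIMP3 had -0.34, and TIMP1 and MMP15 -0.13, as Pearson correlations.

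MMP7, matrilysin, is a small metalloproteinase made by epithelial cells. Its means lay between -0.09 ± 0.18 with PH and 0.43 ± 0.03 with BF (SD, n = 3), and it was called with no compound. The BF spots stood above background on 2 of 3 arrays in Cy5 and on 1 of 3 in Cy3, and with plain background subtraction the BF mean was 0.98 and the 3MC mean 0.64, both called. In the authors' deposited log2 ratios MMP7 with BF was at 0.64, a value that was given for array 1 alone. MMP7, MMP10, MMP1, MMP3 and MMP13 lie on chromosome 11, where MMP10, MMP1 and MMP3 are direct neighbours in this order in the GRCh38.p14 annotation. Within these neighbours, NP had high MMP10 and MMP3 ratios beside an MMP1 ratio of 0.13, whereas BaP had high ratios of MMP1, MMP3 and MMP10. With BF, MMP10 was at 0.26 ± 0.06 beside MMP1 and MMP3. The promoters of MMP7 and MMP10, the members of this group matched in the promoter table used here, follow in the same form as above, since MMP10 was called and MMP7 was not.
MMP7, chr11:102530748-102530997, minus strand: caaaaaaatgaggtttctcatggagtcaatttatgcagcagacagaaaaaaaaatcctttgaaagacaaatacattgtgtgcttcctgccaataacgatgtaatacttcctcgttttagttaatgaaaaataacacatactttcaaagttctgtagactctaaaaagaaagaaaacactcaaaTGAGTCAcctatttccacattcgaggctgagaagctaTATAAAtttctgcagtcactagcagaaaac
MMP10, chr11:102780629-102780878, minus strand: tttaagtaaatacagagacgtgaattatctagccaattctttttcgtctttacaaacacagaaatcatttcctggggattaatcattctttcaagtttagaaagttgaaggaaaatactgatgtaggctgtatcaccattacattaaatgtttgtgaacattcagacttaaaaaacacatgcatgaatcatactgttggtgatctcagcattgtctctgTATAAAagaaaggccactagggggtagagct

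Both hold the TATA box, at bases -30 to -25 in MMP7 and -31 to -26 in MMP10, which 10.7% of all promoters hold. MMP7 holds the AP-1 site TGAGTCA at -67 to -61, and 4.20% of promoters do. No TGAGTCA or GCGTG is in the MMP10 run. These runs have 33.6% and 34.4% G and C bases, against 64.8% in TIMP1, 72.4% in TIMP3 and a median of 58.0% over all promoters.

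MMP14 and MMP15 are membrane-type metalloproteinases, anchored in the plasma membrane, and MMP14 activates pro-MMP2. MMP14 was called with no compound. Its highest means were 0.54 ± 0.13 with BaP and 0.46 ± 0.38 with CHR (SD, n = 3), where the arrays were at 0.39, 0.65 and 0.58 and at 0.90, 0.23 and 0.27. The CHR mean thus rested on array 1. The BaP ratio passed the call rule with plain background subtraction (0.72) and without BaP array 1 (0.61). In the authors' deposited log2 ratios the BaP mean was 0.78 and the CHR mean 0.64, over 2 arrays each, and both were called.

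MMP15 had called means in both directions. Its main probe had log2 ratios of 0.97, 0.92 and 0.98 with PH, 0.52, 0.57 and 0.46 with NP, and 0.30, 0.24 and 0.33 with BaP. They were -0.95, -0.83 and -0.86 with CHR, -0.79, -0.84 and -0.84 with IND, and -2.19, -2.11 and -2.08 with BF. The 3MC and DBA arrays lay between -0.10 and 0.08, and the BA arrays were at 0.12, -0.72 and -0.78. PH lay above and BF below all other compounds without overlap. The called means were 0.96 ± 0.03 (SD, n = 3, 1.94-fold) with PH, and -0.88 ± 0.06, -0.82 ± 0.03 and -2.13 ± 0.06 with CHR, IND and BF (1.84-fold, 1.77-fold and 4.36-fold lower). The BA mean was -0.46 ± 0.50, and -0.75 ± 0.05 (n = 2) and called without array 1. NP, not called as reported, was called higher with plain background subtraction (0.59) and in the authors' deposited log2 ratios (0.64).

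The second MMP15 probe, on the same accession NM_002428, was lower still with BF, at -5.05, -4.99 and -4.97, and with CHR, at -1.16, -1.93 and -2.06. Its BF mean is 32.1-fold lower against 4.36-fold for the main probe, and Cy5 stood above background there on 2 of 3 arrays. With PH the second probe was at 0.18 ± 0.04 (SD, n = 3) and with BaP at -0.45 ± 0.07, and the mean of both probes was 0.57 with PH, which was not called, and -3.56 with BF, which was. With IND both probes had like values, -0.82 and -0.78. The direction with BF, CHR and IND was thus the same for both probes, while the sizes were not.

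The DMSO level of MMP15 on its main probe was 9.89 ± 0.06 and 9.95 ± 0.06 log2 intensity (SD, n = 3) on the PH and BaP arrays. On the other arrays of the shared platform it was 11.98 to 13.09. It was highest on the BF and BA arrays, at 13.09 and 13.08. The compound level of this probe with BF, 10.97 ± 0.05, was above its DMSO level on the PH and BaP arrays. Over the shared platform its mean compound levels spanned 10.24 to 12.55, leaving aside BA. The second probe divided the arrays otherwise. Its DMSO level was 8.51, 8.74 and 8.74 on the NP, 3MC and DBA arrays, beside 9.26 and 9.10 with PH and BaP. With BA, CHR and BF it was 12.80, 12.04 and 12.48. The part of the DMSO levels in the sign of the ratios was not tested.

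Counted by compound, BF had the most called members, 6 of 10 tested: TIMP1, TIMP2, MMP1 and MMP3 higher and TIMP3 and MMP15 lower. Among all genes tested, 36.5% were called with BF, 16.0% higher and 20.4% lower. BaP had 5 higher (TIMP1, TIMP2, MMP1, MMP3 and MMP10) against 25.1% of all genes called and 15.1% called higher. PH had 4 higher (TIMP1, TIMP2, MMP10 and MMP15) and TIMP3 lower, against 18.5%, which divide into 10.6% higher and 7.90% lower. NP had 4 higher (TIMP1, TIMP2, MMP3 and MMP10) against 19.3%, with 6.71% higher and 12.6% lower. CHR had 3 of 10 against 24.1% (11.7% higher and 12.3% lower), and IND 3 of 5 tested against 23.6% (10.5% higher and 13.1% lower), in both cases TIMP1 and TIMP2 higher and MMP15 lower. DBA had TIMP1 and TIMP2 alone, against 10.3% (3.08% higher and 7.26% lower), and so had 3MC, against 11.2% (3.68% higher and 7.48% lower). BA had TIMP1 alone against 5.16% (2.05% higher and 3.11% lower). Without its array 1, BA had TIMP1 higher and TIMP3, MMP10 and MMP15 lower, 4 of 10, against 10.5% (4.55% higher and 5.94% lower). The members were picked for such ratios, so nothing is read from these shares. The median log2 ratio of the members ranged from 0 with BA, array 1 included, to 0.84 with BaP, and that of all genes from -0.009 to 0.042. For IND, MMP3, MMP7, MMP10, MMP13 and MMP14 did not pass the filter on dim probes.

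The genes whose ratios followed each member most closely were ranked over 10150 genes above background on all 24 arrays of the shared platform. Nearest to TIMP1 were S100A11 (Pearson correlation 0.946), ELF4 (0.937), CC2D1B and S100A13 (both 0.919) and SMURF2 (0.912). The lowest were NEDD4L (-0.966), SCAF11 (-0.948) and VANGL1 (-0.936). These ranks include BA array 1. Without it the TIMP1 values were 0.954 for S100A11, 0.914 for ELF4, 0.880 for CC2D1B, 0.882 for S100A13 and 0.913 for SMURF2. For NEDD4L, SCAF11 and VANGL1 they were -0.968, -0.919 and -0.920. For TIMP2 the nearest were AIFM2 (0.938), KLHL21 (0.923), SQSTM1 (0.922), ATP6V1F (0.918) and POLR2F (0.911), with ARHGEF39 (-0.915), APOL6 (-0.905) and TIA1 (-0.896) the lowest. For TIMP3 they were FDFT1 (0.965), WDR59 (0.922), SRSF5 (0.920), GGT7 (0.919) and FAM219B (0.916), against MED10 (-0.938), CYP24A1 (-0.937) and CPT1A (-0.931). MMP15 had the closest, ARAP1 (0.987), CHST13 and PLOD1 (both 0.983) and NLGN2 and PLCG1 (both 0.982), with PSMD14 (-0.973) and ZNF552 (-0.953) among the lowest. No other member stood above background on all 24 arrays. Both genes of a pair were read on the same arrays, and 3 points come from each compound.

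The other genes of the system were counted from 5 lists, with the limma fit of all genes. No set test was made on them, and nothing is read from the counts of a list. Of 30 other metzincins and their inhibitors, 0 to 11 were called with a compound, and BF had 3 higher and 8 lower. Of all genes, 5.16% (BA) to 36.5% (BF) were called, with 16.0% higher and 20.4% lower with BF. The BF count of this list is thus close to the share over all genes. Without BA array 1 the BA shares of all genes were 4.55% higher and 5.94% lower. MMP11, stromelysin-3, fell with 6 of 9 compounds: BF (-3.04 ± 0.08, SD, n = 3, limma adjusted p = 2.33e-12), CHR (-2.01 ± 0.06), IND (-2.00 ± 0.13), BaP (-1.07 ± 0.04), PH (-0.81 ± 0.09) and BA (-0.69 ± 0.99, and -1.26 without array 1). RECK, a membrane-anchored inhibitor of several MMPs, fell with BaP (-1.27 ± 0.03, limma adjusted p = 3.68e-10), IND (-1.12 ± 0.10), NP (-1.05 ± 0.06), 3MC (-0.75 ± 0.01) and PH (limma adjusted p = 2.41e-08). TIMP4, the remaining TIMP, rose with BaP (1.62 ± 0.07, limma adjusted p = 2.11e-10), IND (1.45 ± 0.11) and BF (1.39 ± 0.35), and its DMSO spot stood above background on 1 of 3 BF arrays. The gelatinase MMP9 rose with BaP alone (0.77 ± 0.02, limma adjusted p = 3.74e-10). With DBA, 0 genes of this list met the call rule in limma, 8 of 30 had an unadjusted p under 0.05, and the log2 ratios lay between -0.37 and 0.50. Without BA array 1, BA had 1 gene higher and 2 lower in place of 0 and 1, and TIMP4 was the higher gene (0.74, n = 2, limma adjusted p = 7.64e-06).

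Genes of plasminogen activation, the protease system that can activate pro-MMPs, were called higher more often than lower: of 10 genes, 3 to 7 rose with each compound and 0 to 3 fell. Over all genes, 2.05% (BA) to 16.0% (BF) were called higher and 3.11% (BA) to 20.4% (BF) lower. Without array 1, BA had 4 genes of this list higher and 1 lower, in place of 4 and 0. SERPINE2, protease nexin-1, rose with 9 of 9 compounds, from 0.71 ± 0.06 (SD, n = 3) with NP to 2.79 ± 0.07 with BaP (limma adjusted p = 0.000402 and 7.35e-13). PLAU, urokinase, rose with 7 compounds, highest with BF at 1.75 ± 0.06, and its receptor PLAUR with 5, highest with BF at 2.44 ± 0.04 (limma adjusted p = 3.48e-16 and 6.09e-13). SERPINB8 rose with 6, up to 2.87 ± 0.03 with BF. The proenzyme PLG fell with CHR, BF and IND, to a log2 ratio of -3.83 ± 0.31 with BF (limma adjusted p = 1.84e-17).

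Of 15 AP-1 and ETS transcription factors, which act on many MMP promoters, BaP had 10 higher and 0 lower and BF 7 higher and 3 lower, and DBA 1 in each direction. FOSL1 (FRA-1) rose with 7 of 9 compounds, to 3.01 ± 0.04 (SD, n = 3) with BF and 2.46 ± 0.02 with BaP (limma adjusted p = 3.52e-14 and 1.77e-12). FOSL2 rose with 6 and FOS with 6, both highest with BF at 2.10 ± 0.06 and 2.30 ± 0.02. ELF3 rose with 6, up to 1.93 with BaP, and JUNB with 5. The ETS factor ETV4 rose with NP (1.11 ± 0.03), PH (0.96 ± 0.04) and BaP (0.91 ± 0.10) and fell with BF (-1.75 ± 0.04, limma adjusted p = 2.67e-17). ETV5 fell with PH, 3MC, BF and DBA and ELK1 with CHR and BF, and neither rose with any compound. With BF the log2 ratios of the list ranged from -2.64 to 3.01. Without BA array 1, BA had 7 genes of this list higher in place of 2, FOS and JUNB among them. Of all genes, 4.55% were then called higher with BA in place of 2.05%.

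Among 15 genes of the cytokine pathways that are known to induce TIMP1, 3 to 6 rose with each compound and 0 to 3 fell. Over all genes, the shares were again 2.05% (BA) to 16.0% (BF) higher and 3.11% (BA) to 20.4% (BF) lower. LIF rose with 8 of 9, to 3.84 ± 0.08 (SD, n = 3) with BF, and was at 0.53 ± 0.14 with 3MC (limma adjusted p = 3.81e-13 and 0.0437). IL11 rose with 7, to 5.07 ± 0.07 with BF (limma adjusted p = 1.14e-14), and was at 0.20 ± 0.07 with 3MC and 0.31 ± 0.04 with DBA. IL6R rose with 7, up to 2.04 ± 0.13 with IND, and TGFB1 with 6, up to 2.13 ± 0.01 with NP (limma adjusted p = 2.75e-07 and 1.73e-15). IL6 was called with no compound, with means of -0.40 to 0.11. Several receptor genes of the list fell: IL6ST and TGFBR1 with 4 compounds each, LIFR with 3 and TGFBR2 with 1. None of these rose with any compound, and OSMR rose with 2 and fell with 1. With BF the log2 ratios of the list ranged from -3.38 to 5.07.

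Of 23 matrix genes and substrates, BF had 12 lower and 3 higher and IND 9 lower and 3 higher of 19 tested, while PH had 3 higher and 2 lower. The shares of all genes were 20.4% lower and 16.0% higher with BF and 13.1% lower and 10.5% higher with IND. With PH they were 10.6% higher and 7.90% lower. COL2A1 fell with 6 compounds, to -3.56 ± 0.07 (SD, n = 3) with BF (limma adjusted p = 1.15e-09), and COL18A1, the source of endostatin, with 6, to -1.95 ± 0.07. The BA mean of COL2A1 was -1.85 ± 1.73 with array 1 and -2.85 without it, and 5 genes of the list were lower with BA without array 1 in place of 4. COL4A2 rose with CHR (1.77 ± 0.11, limma adjusted p = 1.03e-16), BF, BaP and IND. The syndecan SDC1 rose with 5 compounds, to 1.93 ± 0.04 with BaP (limma adjusted p = 2.51e-19). SPP1, osteopontin, a substrate of MMP3 and MMP7, rose with BA, CHR, BF and IND and fell with NP, 3MC and BaP, from 2.41 ± 0.05 with IND to -1.43 ± 0.02 with BaP. The lists overlap no member and were chosen with earlier results of these arrays known.

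**Figure D4:**
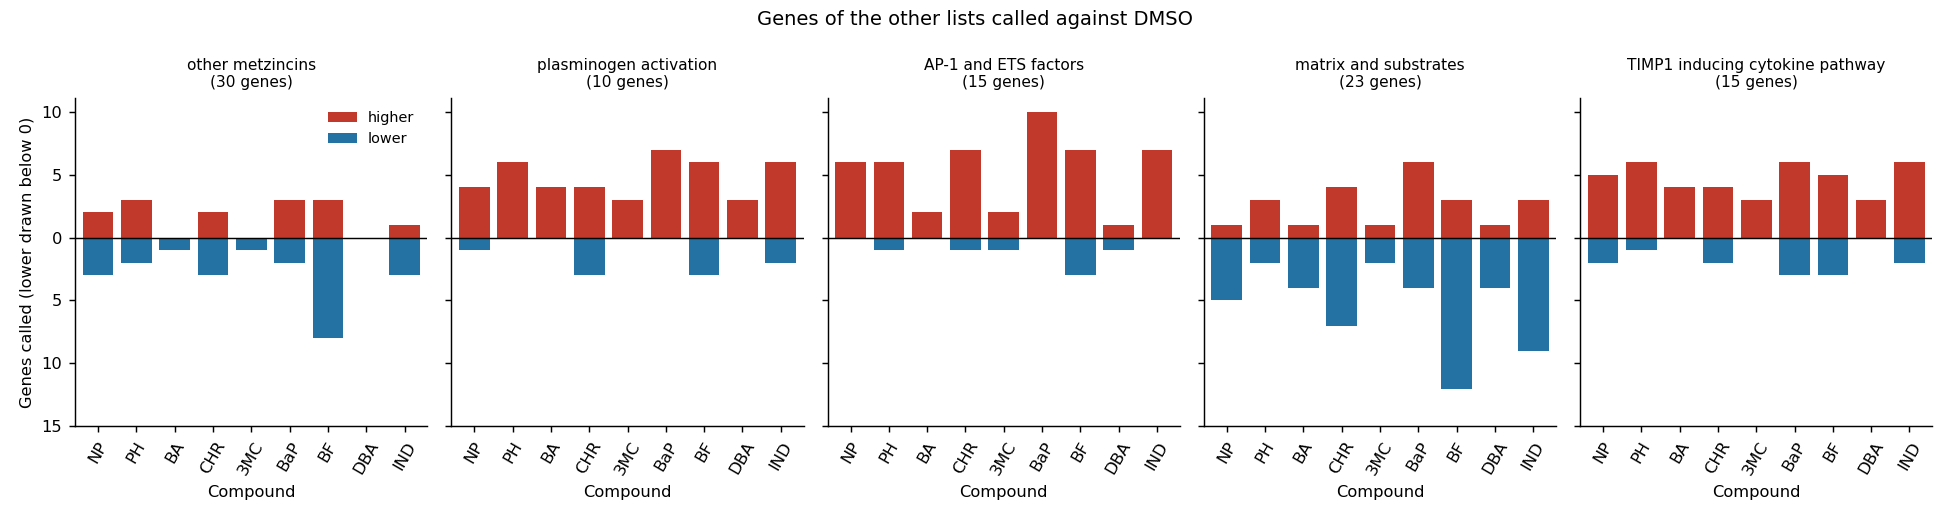
Number of genes called against DMSO (vertical axis, higher above and lower below 0) in each of 5 gene lists, by compound (horizontal axis). Plasminogen activation has 3 to 7 genes higher with each compound, and the matrix list reaches 12 of 23 lower with BF. Of all genes tested, 2.05% (BA) to 16.0% (BF) were called higher and 3.11% (BA) to 20.4% (BF) lower.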

How the data were processed

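RNA of 27 two-dye Agilent arrays was measured, 3 for each of 9 compounds. The authors deposited unnormalised GenePix scanner output: per the file headers, spot and background intensity in each dye and the percent of saturated pixels. The authors also deposited log2 ratios whose processing is not given in the sources used here: 20 of 27 columns could be matched to arrays and served as an alternative, and 7 were not used.

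The analysis used R 4.3.3 with limma 3.58.1, and Python 3.11.15 with numpy 2.4.6, pandas 2.3.3 and matplotlib 3.10.9. Control spots and spots with a flag of -75 or lower were left out. Background was corrected with normexp (offset 50), and each array was normalised with loess, without scaling between arrays. Levels of single dyes were scaled with limma's Aquantile. Spots of a probe were averaged, and the probe with the highest mean intensity stood for its gene, so other probes of a member are given apart. A probe entered the test if either dye exceeded its background by more than 2 background SDs on 2 or more of the 3 arrays of any compound. A spot with 50% or more saturated pixels counted as saturated. Where the DMSO spot was not above background on any array, or the compound spot saturated on all, the fold is a lower bound. Probes were named through accession, symbol or older symbol against GRCh38.p14 gene names, which named 26494 of 41000 probes of the shared platform and 26830 of 41000 of the IND platform.

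One mean per compound was fitted to 24 arrays together and to IND alone, tested 2-sided against 0 with limma (lmFit, eBayes) and Benjamini-Hochberg adjustment over all genes, and called at an adjusted p under 0.05 and 1.5-fold. Named genes are all members, CYP1A1, genes of the 5 lists called with at least 5 compounds or among the 3 most changed with a compound, and the 5 highest and 3 lowest correlations; some genes that this rule names are not reported here. SYN1, SYN3, IL6 and MMP9 were named after their values were seen. The members and lists were chosen with earlier results of these data known. On simulated log ratios with 200 changed genes per compound, 97% to 100% of 2-fold and 100% of 4-fold changes were recovered. For BA the 2-fold share was 100%, whereas the measured arrays gave 892 called genes with BA array 1 and 1814 without it. The simulated shares are therefore no measure of recovery on the measured BA arrays. The number of arrays limits the precision. Arrays of different compounds with equal numbers did not deviate together (mean residual correlation 0.00315 over 84 pairs), so no pairing was used. Alternatives covered background correction, scaling, dim-probe filters, probe choice, thresholds, left-out arrays and the authors' values.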

Additional observations from a re-analysis of the deposited data

Results flagged for a closer look

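MMP15 had called ratios of opposite sign with PH on one side and CHR, BF and IND on the other, and each array of these 4 compounds had the sign of its mean. The mean log2 ratio of its main probe was 0.96 with PH against -0.88 with CHR, -2.13 with BF and -0.82 with IND. With PH the second probe was at 0.18, and the mean of both probes, 0.57, was not called. At a 2-fold threshold the PH, CHR and IND calls were lost and the BF call stayed. The difference between these compounds was not tested, since the gene was chosen by these ratios and the doses are not given. The DMSO level of MMP15 on its main probe was 9.89 log2 intensity on the PH arrays and 12.49 and 13.09 on the CHR and BF arrays. Its part in the difference was not tested.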

How the results depend on the processing

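All 31 called member ratios kept their sign under every alternative that could be computed for them, and between 27 and 31 kept their call. The number of called members with BA, 1 as reported, was 3 with plain background subtraction, with median centring and with quantile scaling, and 0 when each compound was fitted alone. Leaving out 1 array at a time, it ranged from 1 to 4, with 4 without BA array 1. With 3MC it was 1 in place of 2 with the mean of a gene's probes, and with PH it was 3 in place of 5 at 2-fold. The same 2-fold threshold lowered the calls over the 9 compounds from 37 to 18 for the other metzincins, from 55 to 25 for AP-1 and ETS factors, from 72 to 36 for the matrix genes and from 55 to 29 for the cytokine pathways. These counts are lower by construction. For the others the cause was not tested. Leaving out 1 array at a time, the counts ranged from 4 to 5 with PH, from 5 to 6 with BaP, from 35 to 40 for the other metzincins, from 52 to 53 for plasminogen activation, from 53 to 60 for AP-1 and ETS factors, from 69 to 74 for the matrix genes and from 53 to 57 for the cytokine pathways. With the array number as a replicate block, 28 of 28 called member ratios on the shared platform stayed called, and BaP kept a count of 5. For IND no block could be fitted. Called genes of the 5 lists kept their sign under the scaling alternatives, and ETS1 with CHR changed sign where another probe passed a stricter filter. Median centring shifted the split of all genes called higher and lower to 1601 and 650 with DBA, where 3.08% and 7.26% of genes were called as reported, from 1160 and 2174 to 615 and 2993 with NP, from 2609 and 1735 to 3554 and 1331 with BaP, and from 2775 and 3530 to 4253 and 3232 with BF. With BA it raised both counts, from 355 and 537 to 1053 and 1217. Quantile scaling gave 2050 and 1868 with NP, 1042 and 1121 with 3MC in place of 636 and 1293, 3324 and 2644 with BF, and 1152 and 1542 with DBA. Signal over background limits MMP3, MMP7, MMP10, MMP13 and MMP14, and saturation limits TIMP1 with BaP.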
